A study of Mus musculus with 24 samples.

Results

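The 10 genes described here are Atf4, Atf5, Ddit3, Trib3, Chac1, Sesn2, Asns, Psat1, Phgdh and Tars, which belong to the integrated stress response and to the amino acid metabolism tied to it. They were chosen by gene symbol, with results of these arrays already known, and they stand among 19505 gene symbols measured. Of the 10, 9 had 1 row in the table and Ddit3 had several, of which the row with the highest mean over all arrays was used. Every member was measured, and none was lost to a filter on dim rows. The 24 arrays held total RNA of mouse brain tissue, with 4 animals of each genotype and 3 regions from each animal. The KO animals lacked glutamine synthetase, the enzyme that makes glutamine from glutamate and ammonia, in the liver only, and the WT animals were wild type. The regions were cerebral cortex, hippocampus and cerebellum, so that each of the 6 groups held 4 arrays. The title of the study names ammonia excess in the blood, and the question put here is whether these genes differed between KO and WT brain in each region. The Cre line or promoter that confined the KO to liver was not given in the sources used here, nor were strain, age and sex.

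The integrated stress response begins when a kinase that senses a stress, such as a lack of an amino acid, phosphorylates the translation factor eIF2. General translation then falls while the mRNA of the transcription factor ATF4 is translated more, and ATF4 with C/EBP partners switches on genes for amino acid synthesis, uptake and tRNA charging. Because ATF4 is controlled largely at translation, the level of its mRNA need not follow its activity, and the mRNAs of its targets are the usual readout. Glutamine is the nitrogen donor of asparagine synthetase, the product of Asns, and is made by the enzyme deleted in the KO liver. The deletion was in the liver only, whereas the arrays held brain RNA.

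Values below are deposited RMA values on a log2 scale. A difference of 1 unit stands for a factor of 2 in the deposited signal. All tests are limma's moderated test with Benjamini-Hochberg adjustment over 19572 rows, with a call at an adjusted p under 0.05. Errors are SD with n = 4 animals for a group and SE for a difference, and 95% intervals come from the same fit. In tissue RNA, fewer cells of a type and less RNA per cell cannot be told apart. Markers of cerebellar granule and Purkinje cells were highest in cerebellum for 8 of 8 measured genes, and hippocampal markers were highest in hippocampus for 7 of 7. Neocortical markers were highest in cortex for 4 of 7, the exceptions being Fezf2, Bcl11b and Neurod6. In cortex and cerebellum, 3 arrays stood apart by markers of olfactory bulb or of brainstem and spinal cord. The mean of 15 measured olfactory bulb markers was 12.33 in cortex KO 1 and 11.74 in cortex KO 4, against 8.70 to 9.21 in the other 6 cortex arrays. The mean of 16 measured brainstem and spinal cord markers was 8.74 in cerebellum KO 3, against 7.36 to 7.69 in the other 7 cerebellum arrays, and its granule and Purkinje markers averaged 13.66, against 14.73 to 15.27. Neocortical markers averaged 9.21 in cerebellum KO 3, against 8.18 to 8.33 in WT cerebella. Called counts and named genes are given without these 3 arrays where that turns the direction or moves the value by over 1.5 times. The part of the other tissue in them was not tested. Choroid plexus markers, 11 of them measured, varied within groups too. Their means ran from 8.23 to 11.33 in KO and 8.54 to 10.25 in WT hippocampus. In cerebellum they ran from 8.08 to 10.36 in KO and 8.16 to 10.69 in WT animals. No array was set aside for them, and their part in the values was not tested.

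The promoters of the members are shown first where they hold the C/EBP-ATF response element, the composite site through which ATF4 acts on its targets. A search of windows from 250 bases before to 50 bases after each RefSeq gene start (GRCm38.p6) for the letters TGATGNAA on both strands found the element in 4 of 10 members, against 3.97% of all 32851 promoters. The windows are those of Tars at chr15:11399609-11399908 on the minus strand, Asns at chr6:7693160-7693459 on the minus strand, Chac1 at chr2:119350992-119351291 on the plus strand and Trib3 at chr2:152344011-152344310 on the minus strand. Each is written 5′ to 3′ in the direction of transcription, and the capitals mark the element.
Tars: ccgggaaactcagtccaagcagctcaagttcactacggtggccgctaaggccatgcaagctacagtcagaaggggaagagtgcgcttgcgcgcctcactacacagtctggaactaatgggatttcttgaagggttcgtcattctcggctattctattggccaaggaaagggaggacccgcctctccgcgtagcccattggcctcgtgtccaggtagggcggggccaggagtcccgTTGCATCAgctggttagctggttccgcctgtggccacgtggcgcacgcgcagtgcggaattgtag
Asns: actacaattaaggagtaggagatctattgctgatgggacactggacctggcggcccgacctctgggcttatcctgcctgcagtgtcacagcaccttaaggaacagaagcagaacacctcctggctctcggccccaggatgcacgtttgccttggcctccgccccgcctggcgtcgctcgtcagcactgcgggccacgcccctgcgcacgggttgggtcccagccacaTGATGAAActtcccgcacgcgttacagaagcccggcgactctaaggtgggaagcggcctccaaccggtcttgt
Chac1: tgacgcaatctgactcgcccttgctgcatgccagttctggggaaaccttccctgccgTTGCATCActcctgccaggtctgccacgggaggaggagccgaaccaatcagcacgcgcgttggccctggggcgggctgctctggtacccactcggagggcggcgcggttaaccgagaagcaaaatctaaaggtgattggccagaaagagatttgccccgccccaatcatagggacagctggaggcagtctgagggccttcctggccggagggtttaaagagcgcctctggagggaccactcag
Trib3: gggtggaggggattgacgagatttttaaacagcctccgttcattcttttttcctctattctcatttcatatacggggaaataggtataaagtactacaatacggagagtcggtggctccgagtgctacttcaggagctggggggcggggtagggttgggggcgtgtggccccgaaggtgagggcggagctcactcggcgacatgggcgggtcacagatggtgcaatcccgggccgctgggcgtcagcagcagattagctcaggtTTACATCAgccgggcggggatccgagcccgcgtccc
The element began at -15 from the gene start in Tars, at -23 in Asns, at -193 in Chac1 and at 15 in Trib3. In Asns its letters were TGATGAAA on the strand of the gene, whereas in Tars and Chac1 they read TGATGCAA, and in Trib3 TGATGTAA, on the opposite strand. The windows of Atf4, Atf5, Ddit3, Psat1, Phgdh and Sesn2 did not hold these letters, and Atf5 and Psat1 were searched at both of their starts. The palindromic cAMP response element TGACGTCA was in 1.79% of all promoters and in 0 of 10 members. A match of letters is a description of the window, not of a bound site.

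None of the 10 members passed the test between KO and WT animals in any region, and neither did any other gene. In cortex the differences ran from -0.06 for Trib3 to 0.48 for Tars, with a median of 0.03 beside -0.01 over all rows. In hippocampus they ran from -0.24 for Asns to 0.14 for Sesn2, with a median of -0.12 beside 0.01. In cerebellum they ran from -0.26 for Atf5 to 0.42 for Psat1, with a median of 0.09 beside 0.00. The count of called members was 0 of 10 in each region, against a background of 0% of 19572 rows in each region, by limma. At an unadjusted p under 0.05 there were 1 member in cortex (Tars), none in hippocampus and 1 in cerebellum (Atf5), beside 7.45%, 2.11% and 9.5% of all rows. The mean over the regions gave 0 of 10 members called, against a background of 0%, and 1 member (Tars) at the unadjusted threshold, beside 7.41%. Of the 10 members, 6 were higher in KO in cortex, 3 in hippocampus and 6 in cerebellum, against 47.1%, 52.5% and 49.2% of all rows. The 95% intervals of the members bounded the KO difference between -0.41 and 0.71 in cortex, between -0.66 and 0.45 in hippocampus, and between -0.50 and 0.94 in cerebellum. Without cortex KO 1 and KO 4, 5 of 10 members were higher in cortex with a median of 0.0027. Ddit3 and Trib3 were then at -0.13 and -0.12, Atf4 at -0.08, Psat1 at 0.20, Phgdh and Sesn2 at 0.01 each, and Atf5 at -0.0055. Without cerebellum KO 3, 6 of 10 were higher in cerebellum with a median of 0.05, with Atf4 at 0.08, Phgdh at 0.03 and Sesn2 at -0.02.

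**Figure D1:**
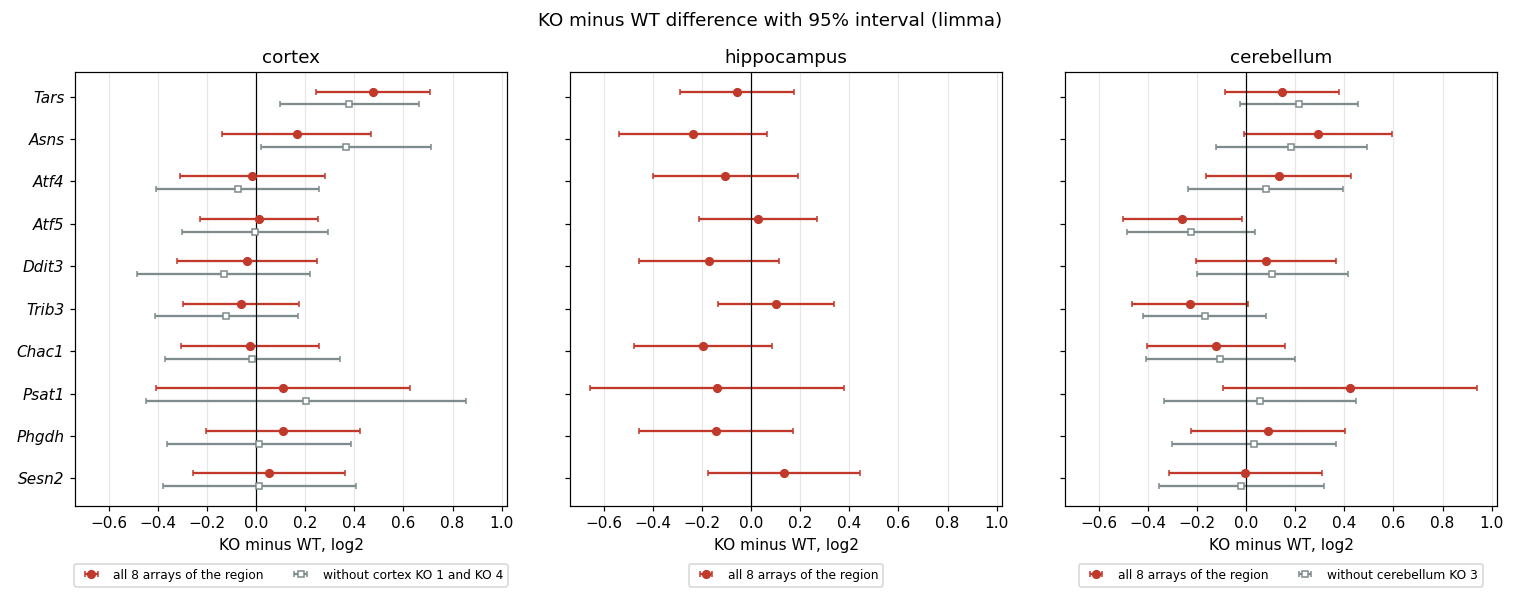
KO minus WT difference of each member in cortex, hippocampus and cerebellum (log2 units), with bars for the 95% interval of the limma fit over 24 arrays. The interval of Tars in cortex (0.24 to 0.71) and that of Atf5 in cerebellum (-0.50 to -0.02) leave out 0, and neither gene passed the adjusted threshold. Open squares give the fits without cortex KO 1 and KO 4 and without cerebellum KO 3. In these the interval of Atf5 in cerebellum holds 0 (-0.49 to 0.04). Those of Tars (0.10 to 0.66) and Asns (0.02 to 0.71) in cortex leave out 0, and no member was called.

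Among the transcription factors, Atf4, the central factor of the response, read 12.94, 13.05, 13.23 and 13.58 in the cortex of KO animals 1 to 4, against 13.30, 13.48, 12.92 and 13.16 in the cortex of WT animals 1 to 4. The groups overlapped throughout, and the difference was -0.02 (SE 0.14). In hippocampus Atf4 averaged 12.94 ± 0.11 in KO and 13.04 ± 0.12 in WT animals, and in cerebellum 13.33 ± 0.27 in KO and 13.20 ± 0.16 in WT animals. Those differences of -0.10 and 0.13 were within the spread between animals. The interval of the Atf4 difference in cortex ran from -0.31 to 0.28.

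Atf5, a related factor that is also controlled at translation, gave the lowest difference in cerebellum. It read 9.02, 9.06, 8.88 and 8.98 in the cerebellum of KO animals 1 to 4, against 9.21, 9.48, 9.20 and 9.09 in WT animals 1 to 4. All KO arrays lay below all WT arrays, a pattern that 1.57% of all rows showed in this direction. The difference was -0.26 (SE 0.12, unadjusted p 0.0362) and did not pass after adjustment (adjusted p 0.508 in the limma fit over 24 arrays). Without cerebellum KO 3 it was -0.22, and without cerebellum WT 2, the highest array for Atf5 there, it was -0.18. Cerebellum WT 2 also had the highest choroid plexus mean of the WT cerebella (10.69). In cortex and hippocampus the Atf5 differences were 0.01 and 0.03, and in hippocampus KO 4 read 9.48 while the other KO arrays read 8.96 to 9.05.

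Ddit3, which encodes CHOP, the factor tied to the later and cell-death-prone arm of the response, averaged 10.87 ± 0.17 in KO and 10.91 ± 0.12 in WT cortex. In hippocampus it averaged 10.67 ± 0.05 in KO and 10.84 ± 0.23 in WT animals, and in cerebellum 10.68 ± 0.26 in KO and 10.60 ± 0.26 in WT animals. The groups overlapped in each region. The direction depended on the row of the table in each region. With the mean of both Ddit3 rows the differences were 0.01 in cortex and -0.06 in cerebellum, in place of -0.04 and 0.08. The other row alone averaged 9.65 ± 0.10 in KO and 9.86 ± 0.14 in WT cerebellum. It averaged 9.90 in KO and 9.83 in WT cortex, and 9.87 in KO and 9.81 in WT hippocampus.

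**Figure D2:**
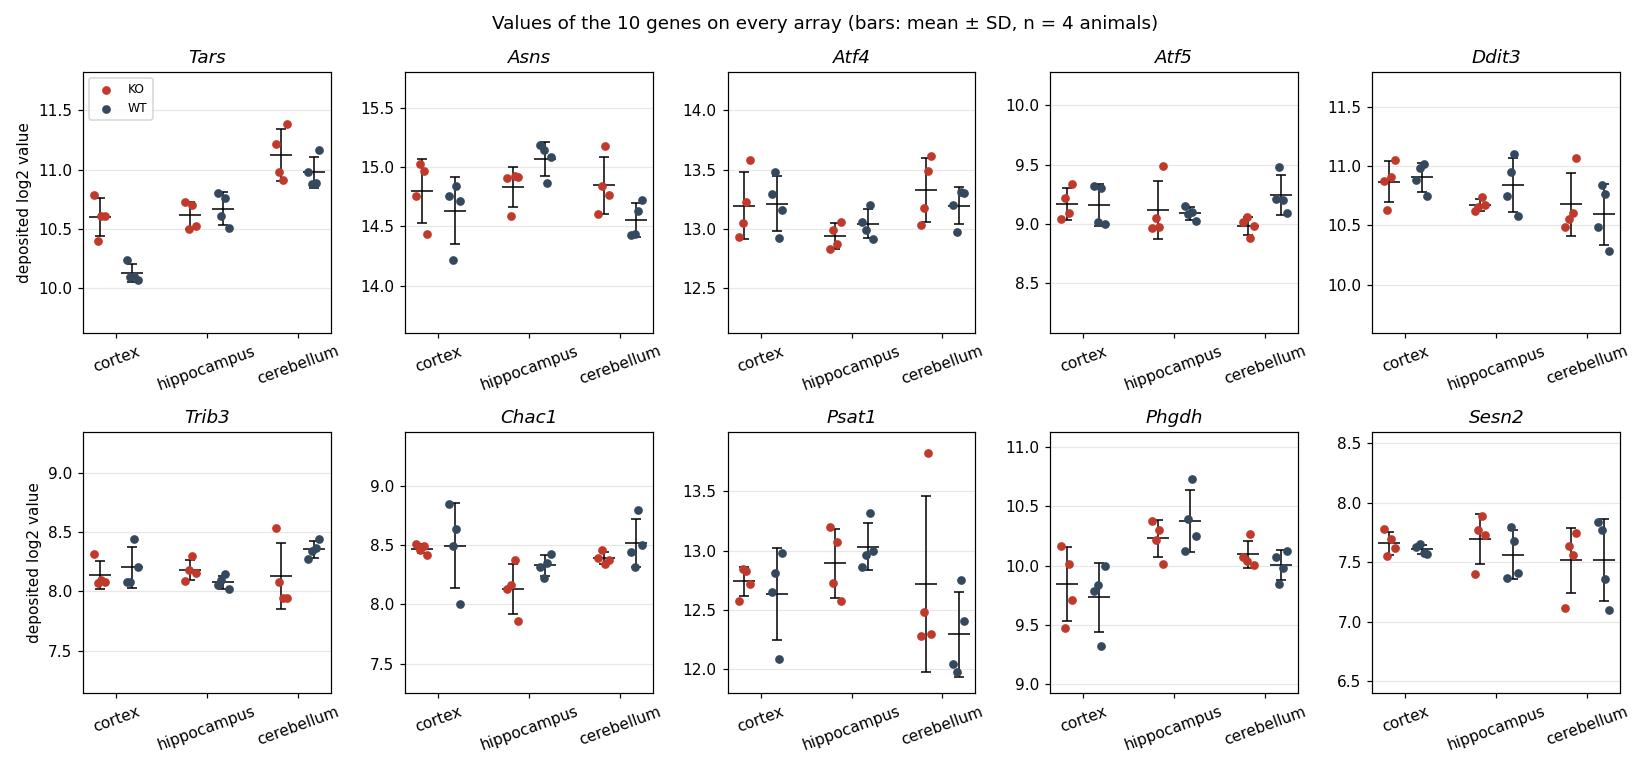
RMA log2 value of each of the 10 members on every array, by region, with KO left of WT. Points are single animals and bars are group means; only Tars in cortex and Atf5 in cerebellum have KO and WT animals that do not overlap.

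The feedback and effector genes showed no call either. Trib3, a pseudokinase that is induced by ATF4 and CHOP and restrains them, read 8.54, 8.07, 7.95 and 7.95 in the cerebellum of KO animals 1 to 4, against 8.27, 8.34, 8.36 and 8.44 in WT animals 1 to 4. KO 1 was the highest of the 8 arrays and the other 3 KO animals lay below every WT animal, with a difference of -0.23 (SE 0.11, adjusted p 0.535, limma). In cortex and hippocampus the Trib3 differences were -0.06 and 0.10.

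Chac1, an enzyme that breaks down glutathione, averaged 8.13 ± 0.21 in KO and 8.33 ± 0.08 in WT hippocampus, a difference of -0.20 (SE 0.14). Its differences in cortex and cerebellum were -0.02 and -0.12. Sesn2, a sestrin that binds leucine and restrains the growth kinase complex mTORC1, ran from 7.10 to 7.89 over the 24 arrays, the lowest mean of the 10 rows. Its KO differences were 0.05, 0.14 and -0.0022 in cortex, hippocampus and cerebellum. RMA compresses differences of dim rows, and Sesn2 (percentile 32.5 of row means) and Trib3 (percentile 40.5) were the dimmest members.

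Asns encodes asparagine synthetase, which uses glutamine to amidate aspartate, and its row was among the brightest on the arrays, at percentile 98.2 of row means. In cerebellum it read 14.61, 14.84, 15.18 and 14.77 in KO animals 1 to 4, against 14.43, 14.44, 14.63 and 14.72 in WT animals 1 to 4. The highest KO array was cerebellum KO 3, and the lowest KO array lay below the highest WT arrays. In hippocampus it read 14.91, 14.59, 14.93 and 14.91 in KO animals 1 to 4, against 15.19, 15.14, 14.86 and 15.09 in WT animals 1 to 4. Here 3 WT arrays stood above every KO array and WT 3 stood among them. In cortex it read 14.75, 15.03, 14.97 and 14.44 in KO animals 1 to 4, against 14.76, 14.22, 14.84 and 14.71 in WT animals 1 to 4. The differences were 0.16 in cortex, -0.24 in hippocampus and 0.29 in cerebellum (SE 0.15 each), none of them called. Without cortex KO 1 and KO 4 the cortex difference was 0.37, and without cerebellum KO 3 the cerebellum difference was 0.18.

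Psat1 and Phgdh encode the enzymes of the first and second steps of serine synthesis from a glycolytic intermediate, with Phgdh acting first and Psat1 taking its amino group from glutamate. Psat1 read 12.28, 12.48, 13.82 and 12.30 in the cerebellum of KO animals 1 to 4, against 12.05, 11.98, 12.75 and 12.40 in WT animals 1 to 4. KO 3 stood far above the other arrays, and the difference was 0.42 (SE 0.25) with it and 0.06 without it. The mean of 12 astrocyte markers was 13.84 in cerebellum KO 3 as well, the highest of the KO cerebella, whose lowest was 13.55, against 13.27 to 13.57 in WT cerebella. Other glial markers stood further apart on this array: 7 measured oligodendrocyte markers averaged 14.68 in KO 3 and 12.97 to 13.01 in the other KO cerebella, against 12.52 to 13.13 in WT cerebella. The mean of 6 measured microglia markers was 9.53 in KO 3 and 8.71 to 8.84 in the other KO cerebella, against 8.62 to 8.78 in WT cerebella. In cortex and hippocampus the Psat1 differences were 0.11 and -0.14. Phgdh averaged 9.84 ± 0.31 in KO and 9.73 ± 0.29 in WT cortex, and its differences were 0.11, -0.14 and 0.09 in cortex, hippocampus and cerebellum.

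Tars, the cytosolic enzyme that charges threonine onto its tRNA, gave the largest member difference. It read 10.79, 10.40, 10.61 and 10.61 in the cortex of KO animals 1 to 4, against 10.24, 10.10, 10.10 and 10.07 in WT animals 1 to 4. Every KO array lay above every WT array, as for 1.71% of all rows in this direction. The means were 10.60 ± 0.16 in KO and 10.13 ± 0.08 in WT cortex, a difference of 0.48 (SE 0.11, 95% interval 0.24 to 0.71), or 1.39-fold. That was rank 9 of all rows by p, but it did not pass (adjusted p 0.366, which was also the smallest of all rows in cortex, limma). Tars was listed among the members with this difference already seen, so its size is a description. The arrays with olfactory bulb markers were KO 1, the highest for Tars, and KO 4. Without both the difference was 0.38 (SE 0.14, adjusted p 0.999, limma). Leaving out any 1 cortex array gave 0.41 to 0.54, and Tars passed only without cortex KO 2, the lowest KO array (adjusted p 0.0477, when 55 genes were called).

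The other regions gave smaller differences of Tars. In hippocampus it averaged 10.61 ± 0.12 in KO and 10.67 ± 0.14 in WT animals, a difference of -0.06 (SE 0.11). In cerebellum it averaged 11.12 ± 0.22 in KO and 10.98 ± 0.13 in WT animals, a difference of 0.14 (SE 0.11), or 0.21 without KO 3. The KO effect in hippocampus minus that in cortex was -0.53 (SE 0.16), and the test of any difference of the effect among the regions gave an unadjusted p of 0.00865 and an adjusted p of 0.921 (limma F over 24 arrays). For Asns that test gave an unadjusted p of 0.0439 and the same adjusted p. For the difference of the KO effect among regions 0 of 10 members were called, against a background of 0%, and Tars and Asns were the 2 of 10 at the unadjusted threshold beside 5.09% of all rows. The effect of KO was therefore not shown to differ between regions for any member. Averaged over the regions, the KO difference of Tars was 0.19 (SE 0.065, adjusted p 0.661), the largest of the 10.

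The comparison of regions within a genotype shows how each member is laid out in the brain of these animals. Between regions the animal was a random block, and the region pairs share arrays, so they are not independent of each other. Of the 10 members, 2 were called in hippocampus against cortex in WT animals, beside a background of 7.09%. In cerebellum against cortex in WT animals 1 was called, beside a background of 35.8%. In cerebellum against hippocampus in WT animals 3 were called, beside a background of 34.9%. In KO animals the counts were 0 for hippocampus against cortex (background 6.86%), 1 for cerebellum against cortex (background 32.1%) and 2 for cerebellum against hippocampus (background 31.3%). In the 4 comparisons with cerebellum the share of members called was below that of all rows with all arrays and no weights. For cerebellum against hippocampus in WT animals the count was 5 of 10 with array weights. It ran from 1 to 4 with each array left out, so no difference from the background is read from these counts.

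**Figure D3:**
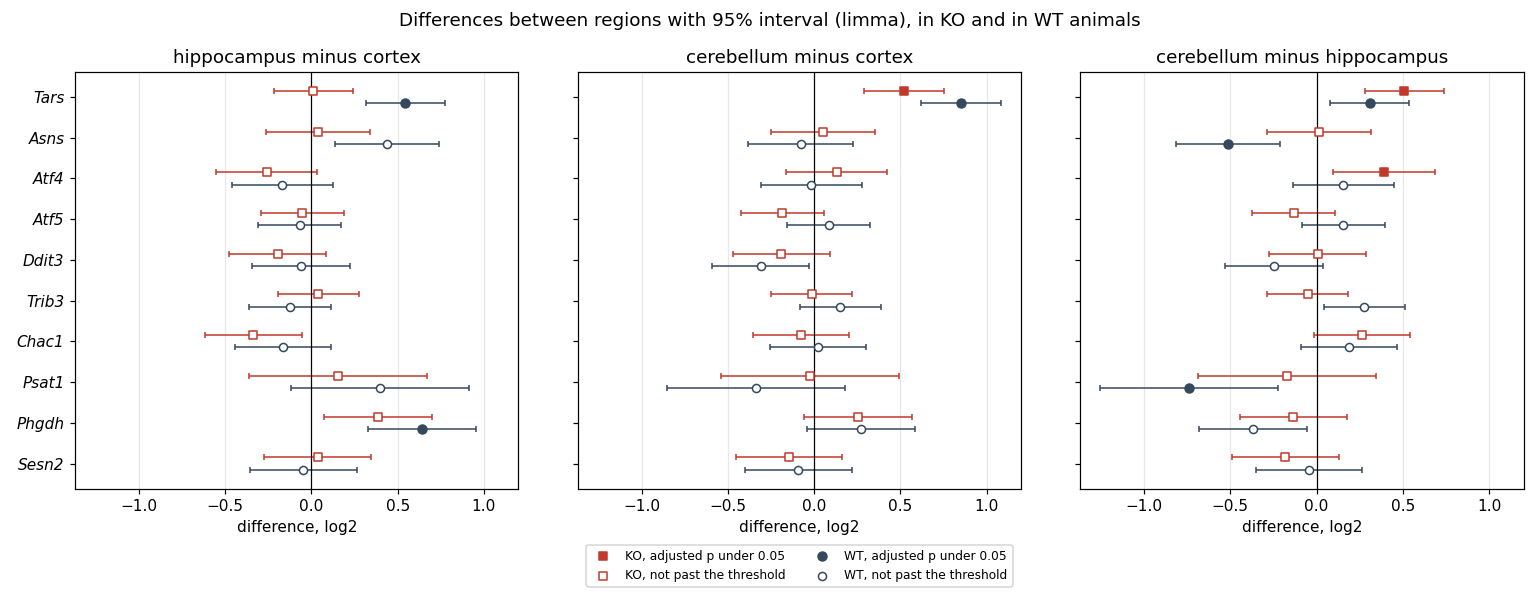
Difference between regions for each member in KO and WT animals (log2 units), with 95% intervals. Tars is above 0 in cerebellum against cortex in both genotypes (0.52 in KO, 0.85 in WT), while in hippocampus against cortex it is at 0.01 in KO and 0.54 in WT.

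Tars had the same top region in both genotypes. Its mean was highest in cerebellum (11.12 in KO, 10.98 in WT), and cerebellum exceeded cortex by 0.52 (SE 0.11, adjusted p 0.000648, limma) in KO animals and by 0.85 (SE 0.11, adjusted p 8.27e-07, limma) in WT animals. Cerebellum exceeded hippocampus by 0.51 (adjusted p 0.000826) in KO and by 0.31 (adjusted p 0.0343) in WT animals. The WT call was lost without hippocampus WT 2 or WT 4 or cerebellum WT 1 or WT 4, with adjusted p up to 0.125. Hippocampus exceeded cortex by 0.54 (adjusted p 0.0026) in WT animals, and by 0.01 in KO animals, where these neighbours did not differ beyond their spread. Without cortex KO 1 and KO 4, cerebellum against cortex in KO animals was 0.62 and hippocampus against cortex was 0.11.

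The serine and asparagine enzymes were laid out otherwise. Phgdh read 10.12, 10.39, 10.73 and 10.25 in WT hippocampus, against 9.78, 9.83, 9.32 and 9.996 in WT cortex. Every WT hippocampus lay above every WT cortex, as for 8.76% of all rows in this direction, with a difference of 0.64 (SE 0.15, adjusted p 0.00916, limma), which lost its call without hippocampus WT 3 (adjusted p 0.0555). In KO animals the same difference was 0.39 (adjusted p 0.142). Cerebellum lay between, 0.37 below hippocampus and 0.27 above cortex in WT animals, neither called.

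Asns was lower in cerebellum than in hippocampus of WT animals, where the difference was -0.52 (SE 0.15, adjusted p 0.00678, limma) and the arrays did not overlap, as for 18% of all rows in this direction. This call held in each fit that left out 1 array, with adjusted p up to 0.0259. In KO animals the same difference was 0.01 (SE 0.15), or -0.10 without cerebellum KO 3. The change of that regional difference with genotype, which is the KO effect in cerebellum minus that in hippocampus, was 0.53 (SE 0.21, unadjusted p 0.0171, adjusted p 0.881, limma). Psat1 was lower in cerebellum than in hippocampus of WT animals by a difference of -0.74 (SE 0.25, adjusted p 0.0226, limma). Its call was lost without hippocampus WT 3 or cerebellum WT 1 or WT 2, with adjusted p up to 0.0784. In KO animals Psat1 differed by -0.17 with all arrays and by -0.54 (adjusted p 0.0289) without cerebellum KO 3.

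Of the transcription factors, Atf4 was higher in cerebellum than in hippocampus of KO animals by 0.39 (SE 0.14, adjusted p 0.0377, limma) and by 0.15 in WT animals, where it was not called. It read 13.04, 13.18, 13.49 and 13.62 in KO cerebellum, against 12.83, 12.99, 12.87 and 13.06 in KO hippocampus. The arrays overlapped by KO cerebellum 1, which lay below KO hippocampus 4. Without cerebellum KO 3 the difference was 0.34 (adjusted p 0.0953), and the call was also lost without hippocampus KO 1, KO 2 or KO 3 or cerebellum KO 4. Atf5, Ddit3, Trib3, Chac1 and Sesn2 were called between no pair of regions in either genotype, and their differences ran between the -0.34 of Chac1, in hippocampus against cortex of KO animals, and the 0.28 of Trib3, in cerebellum against hippocampus of WT animals. That Trib3 difference (adjusted p 0.0635 in the limma fit) passed under 4 other settings, with adjusted p from 0.0249 to 0.0482. Ddit3 in cerebellum against cortex of WT animals, at -0.31, passed without cerebellum WT 2, at -0.39 (adjusted p 0.0361). The other Ddit3 row did not show this, with 9.86 ± 0.14 in WT cerebellum and 9.83 ± 0.11 in WT cortex.

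The wider pathway was read from 9 lists of 130 genes, of which 122 were measured, also written with earlier results known. Between KO and WT no listed gene was called in any region, against the background of 0%. At an unadjusted p under 0.05 there were 3 of 122 listed genes in cortex, 1 in hippocampus and 16 in cerebellum, beside 7.45%, 2.11% and 9.5% of all rows. The count in cerebellum was 2 of 122 without KO 3, beside 688 of all 19572 rows in that fit. The count in cortex was 7 of 122 without KO 1 and KO 4, beside 693 of all 19572 rows in that fit. The medians of all listed genes were 0.03 in cortex, -0.01 in hippocampus and 0.05 in cerebellum, and without the arrays named above -0.01 in cortex and 0.04 in cerebellum.

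**Figure D4:**
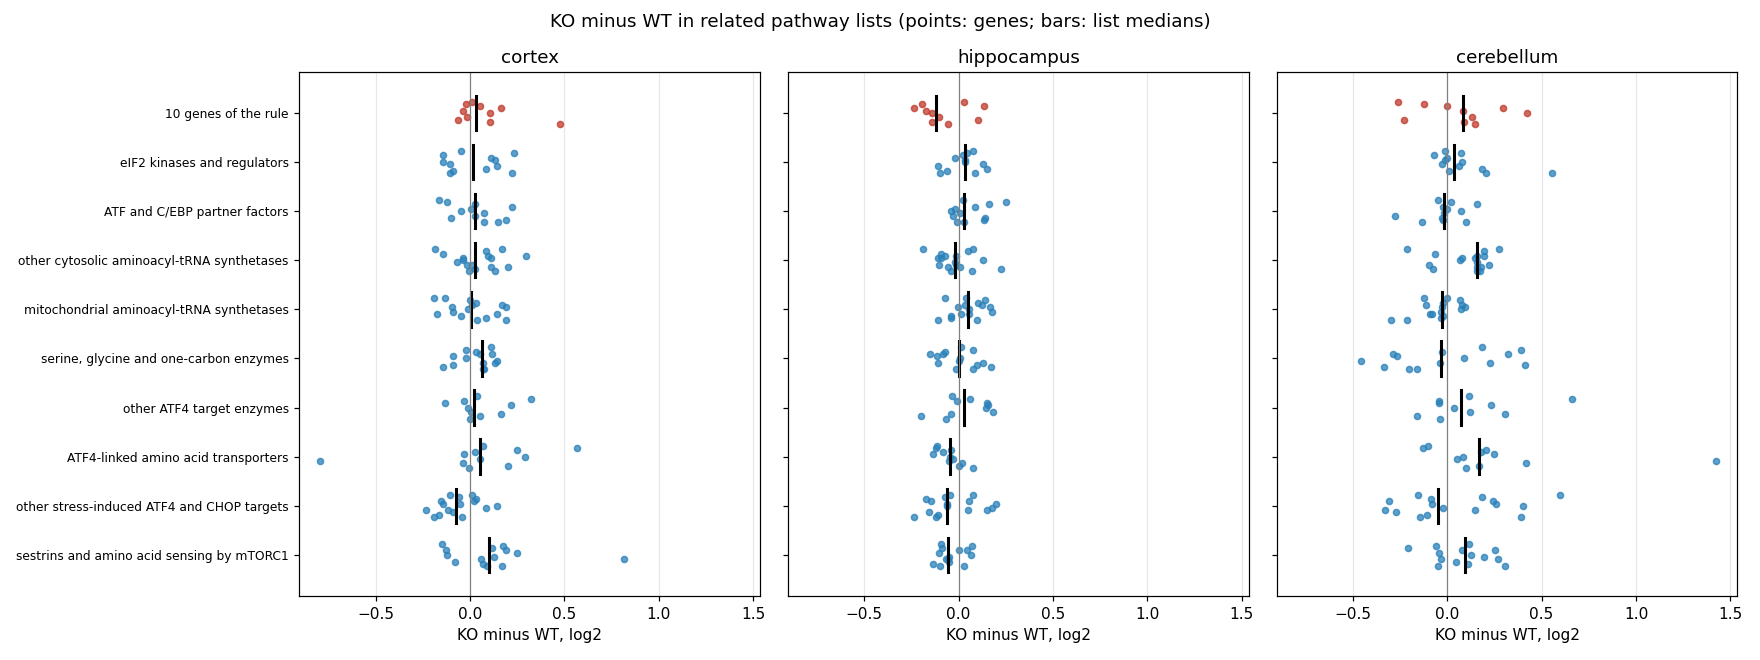
KO minus WT difference of the genes in each pathway list, by region (log2 units). Each point is a gene and each bar the median of its row. The top row holds the 10 members, with medians of 0.03 in cortex, -0.12 in hippocampus and 0.09 in cerebellum. The medians of the lists lie between -0.07 and 0.17, and no gene was called.

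In cerebellum 13 of 17 other cytosolic aminoacyl-tRNA synthetases, the family of Tars, were higher in KO, with a median of 0.16, and 12 of 16 mitochondrial synthetases were lower, with a median of -0.03. Without KO 3 the cytosolic median was 0.05, with 15 of 17 higher, and 8 of 16 mitochondrial genes were higher. Farsb and Sars, which charge phenylalanine and serine, were at 0.27 and 0.22, and without KO 3 at 0.20 and 0.13. The mitochondrial synthetases Aars2 and Sars2 were at -0.30 and -0.21. In cortex, where Tars was at 0.48, 10 of 17 cytosolic synthetases were higher with a median of 0.02, led by Eprs at 0.30 and Yars at 0.20. Without cortex KO 1 and KO 4, Eprs was at 0.16 and Yars at 0.08. In hippocampus 6 of 17 were higher with a median of -0.02, with Lars at 0.22 and Vars at -0.19.

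The amino acid transporters tied to ATF4 were higher in KO cerebellum for 9 of 11 genes, with a median of 0.17, or 0.06 without KO 3. Slc7a3, a carrier of cationic amino acids, was at 1.43 (SE 0.54, adjusted p 0.437, limma) and at 0.81 without KO 3. Slc1a4, a carrier of small neutral amino acids, was at 0.42 and at 0.12 without it. In cortex 7 of 11 were higher with a median of 0.05, but 4 of 11 with a median of -0.06 without KO 1 and KO 4. Slc1a5, a glutamine carrier, was at 0.57 there and Slc38a1, another glutamine carrier, at 0.29, but at 0.28 and 0.05 without KO 1 and KO 4. In hippocampus 3 of 11 were higher, with Slc7a5 at -0.11 and Slc7a11, the cystine carrier, at -0.13.

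Among serine, glycine and one-carbon enzymes 9 of 14 were higher in KO cortex, 8 in hippocampus and 6 in cerebellum. Without cortex KO 1 and KO 4 the count in cortex was 3 of 14 and the median -0.04, in place of 0.06, and without cerebellum KO 3 the count in cerebellum was 7. Mthfd2, a mitochondrial folate enzyme and a common marker of ATF4 activity, was at 0.41 in cerebellum (0.29 without KO 3), whereas Shmt1, the cytosolic serine hydroxymethyltransferase, was at -0.29. In cortex Shmt2 and Mthfd1 were at 0.13 and 0.11, but at -0.03 and 0.06 without KO 1 and KO 4. In hippocampus Shmt1 and Tyms were at -0.15 and 0.13. Among the other ATF4 target enzymes, Bcat1, which transaminates branched-chain amino acids, was at 0.66 in cerebellum (0.30 without KO 3) and 0.32 in cortex (0.05 without KO 1 and KO 4). Got1 was at 0.31 in cerebellum (0.16 without KO 3), and Gpt2 at 0.22 in cortex (0.06 without KO 1 and KO 4). In hippocampus Cth, an enzyme of cysteine synthesis, was at 0.18 and Nags, which makes the activator of the urea cycle, at -0.20.

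Upstream of ATF4, the eIF2 kinases and regulators were higher in KO for 6 of 12 genes in cortex, 8 in hippocampus and 8 in cerebellum. Impact, an inhibitor of the amino acid sensing kinase GCN2, was at 0.56 in cerebellum and at 0.32 without KO 3, and Eif2b2 was at 0.19 (0.12 without KO 3). In cortex Eif2ak1 and Eif2b3 were at 0.22 and 0.23 (0.37 and 0.07 without KO 1 and KO 4), and in hippocampus Eif2b2 and Ppp1r15b were at 0.15 and 0.13. The listed ATF and C/EBP factors, not all of them partners of ATF4, were higher for 8 of 12 in cortex, 8 in hippocampus and 4 in cerebellum. Without cortex KO 1 and KO 4 the count in cortex was 4 of 12, and without cerebellum KO 3 that in cerebellum was 7 of 12. Atf6 and Cebpb were at 0.22 and -0.17 in cortex, or 0.42 and -0.03 without KO 1 and KO 4. Cebpa and Nfe2l2 were at 0.25 and 0.16 in hippocampus. Atf6b and Nfe2l2 were at -0.27 and 0.16 in cerebellum, or -0.14 and 0.06 without KO 3. The mitochondrial synthetases Fars2 and Yars2 were at -0.19 and 0.19 in cortex (-0.28 and 0.33 without KO 1 and KO 4), and Rars2 and Yars2 at 0.18 and 0.17 in hippocampus.

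The other stress-induced targets of ATF4 and CHOP were higher in KO for 5 of 16 genes in cortex, 6 in hippocampus and 7 in cerebellum, with medians of -0.07, -0.06 and -0.05. Sqstm1, an autophagy receptor, was at 0.39 and Ero1a, an oxidase of the endoplasmic reticulum, at 0.40 in cerebellum, or 0.21 and 0.32 without KO 3. Vldlr and Bbc3 were at -0.15 and -0.16 in cortex (-0.22 and -0.08 without KO 1 and KO 4), and Eif4ebp1 and Tnfrsf10b were at -0.16 and 0.18 in hippocampus. Of the sestrin and mTORC1 sensing genes, which include other relatives of Sesn2, 10 of 14 were higher in cortex, 5 in hippocampus and 9 in cerebellum, and without the arrays named above 8 in cortex and 11 in cerebellum. Rragd, a GTPase that brings mTORC1 to the lysosome, was at 0.81 in cortex (SE 0.25, adjusted p 0.463, limma), but at 0.22 without KO 1 and KO 4, and Mios was at 0.25 (0.13 without them). In cerebellum Sesn3 was at 0.25 and Rragb at 0.31 (0.15 without KO 3), and in hippocampus Mios and Nprl3 were at -0.11 and -0.14.

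Between cerebellum and cortex of WT animals the same lists held many calls, 31 of 122 higher and 15 lower in cerebellum, beside 19.1% of all rows higher and 16.7% lower. Of the serine, glycine and one-carbon enzymes 8 of 14 were called higher and none lower. Aldh1l2 and Mthfd1l, both mitochondrial folate enzymes, were higher by 2.03 and 1.03. Of the cytosolic synthetases 5 of 17 were called higher besides Tars, with Eprs at 0.64 and Farsa at 0.39. The sestrin and mTORC1 list had 6 called higher and 3 lower of 14, with Sesn1 at 1.07 and Flcn, a regulator of the Rag GTPases, at 1.12. The transporters moved both ways, with Slc38a1 at 1.28 and Slc7a11 at -1.39, and so did the stress targets, with Vldlr at 1.19 and Rcan1 at -1.33. Other called examples were Impact at -0.85 and Eif2b1 at 0.49, Jdp2 at -1.13 and Xbp1 at 0.79, Oat at 0.52 and Cth at -0.43, and Hars2 at 0.47 and Yars2 at 0.49.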

How the data were processed

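Total RNA of 24 mouse brain samples was measured on 1 array each. The authors deposited RMA values, on a log2 scale as read from their range of 3.89 to 19.14 (RMA corrects background, normalizes between arrays and summarises the probes of a gene), per the submitters' processing notes. Its version and the genome build of the platform were not given in the sources used here, and scanner signals were not used here. Of 22206 rows, 291 exceeded 16 on an array, and whether the values were rescaled is not known here. The labels name biotin and also Cy3, so the labelling chemistry is not settled. Precision is limited by the 4 arrays per group.

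Of 22206 rows, 19572 with 1 platform gene (19505 symbols) entered the fits, made in R 4.3.3 with limma 3.58.1 and statmod 1.5.0. KO was set against WT in each region with 1 mean per group over 24 arrays, 18 residual degrees of freedom and no block. The mean over regions, the differences of the KO effect and the region pairs had the animal as a random block, with a consensus correlation of 0.0065. P-values were adjusted by Benjamini-Hochberg over all rows. The fit was run on simulated data, where recovery was required only for changes larger than any member difference. That run does not show how often differences of the members' size would be called.

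The members and lists were chosen with earlier results of these data known. All 10 members are named. From each list the 2 genes of smallest p in each regional KO comparison and in cerebellum against cortex of WT are named, and for each member the 2 genes of highest correlation. The lists were eIF2 kinases and regulators, ATF and C/EBP partner factors, cytosolic and mitochondrial synthetases, serine, glycine and one-carbon enzymes, other ATF4 target enzymes, transporters, other stress-induced targets, and sestrins with mTORC1 sensing. Numbers name animals within a genotype, so KO 1 and WT 1 are not paired. Deviations from the group mean correlated over 0.1 in 2 of 12 such pairs, beside 8 of 36 KO and WT pairs of other numbers. For pairs of regions the count was 6 of 24 within 1 animal, beside 11 of 72 between animals of the same genotype. Other normalizations, filters, weights and samples were tried as alternatives.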

Additional observations from a re-analysis of the deposited data

Results flagged for a closer look

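In 4 of 60 groups of 4 arrays, 1 array of a member lay far from the other 3 by Dixon's test, which chance does in about 1 of 20 groups. Asns in the hippocampus of KO animals was lowest in KO 2 at 14.59, with the nearest array at 14.91. Atf5 in the hippocampus of KO animals was highest in KO 4 at 9.48, with the nearest at 9.05. Trib3 in the cortex of KO animals was highest in KO 1 at 8.32, with the nearest at 8.09, and this was 1 of the arrays with high olfactory bulb markers. Psat1 in the cerebellum of KO animals was highest in KO 3 at 13.82, with the nearest at 12.48, on the array with high brainstem markers. The part of the other tissue in these values was not tested.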

How the results depend on the processing

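Of 872 values recomputed under alternatives other than leaving out each array, 848 were counted as unchanged. For the difference of a gene, unchanged means the same direction and the same side of the threshold. Counts of called genes and medians of the members are also among these values. A count was unchanged if it stayed near its first value. A median near 0 could change sign and still be counted as unchanged. The count of members called in cerebellum against hippocampus of WT animals was 5 with array weights, in place of 3, and the count of all genes called in hippocampus against cortex of WT animals was 2663 in place of 1387. Directions turned for values near 0. Quantile normalization gave 0.0209 for Sesn2 between KO and WT cerebellum, 0.00382 for Sesn2 in hippocampus against cortex of WT, and -0.0380 for Tars in hippocampus against cortex of KO. Centring on medians gave -0.00435 for that value of Tars, 0.0217 for Atf4 in cerebellum against cortex of WT, 0.00840 for Sesn2 in cerebellum against hippocampus of WT and 0.00703 for Psat1 in cerebellum against cortex of KO. Array weights gave -0.0204 for Atf5 between KO and WT hippocampus and 0.0570 for Sesn2 between KO and WT cerebellum. The mean of both Ddit3 rows gave 0.0125 in cortex and -0.0632 in cerebellum, and leaving out cortex KO 1 and KO 4 gave -0.00549 for Atf5 in cortex. The cause was not tested. Calls gained were Trib3 in cerebellum against hippocampus of WT, under quantile normalization (adjusted p 0.0291), centring (0.0249), the filter on dim rows (0.0482) and array weights (0.028). With array weights, Asns in hippocampus against cortex of WT (0.0112), Phgdh in cerebellum against hippocampus of WT (0.0467) and Psat1 in cerebellum against hippocampus of KO (0.0427) were also called. With 1 array left out, 2 more calls were gained. They were Ddit3, on the row used, in cerebellum against cortex of WT (0.0361, without cerebellum WT 2), and Phgdh in cerebellum against hippocampus of WT (0.0344, without hippocampus WT 1).

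With each array left out in turn, the count of members called between KO and WT ran from 0 to 1 in cortex (Tars, without KO 2) and was 0 in hippocampus, in cerebellum, in the mean over regions and for the difference among regions. In WT animals it ran from 1 to 2 in hippocampus against cortex, from 1 to 2 in cerebellum against cortex and from 1 to 4 in cerebellum against hippocampus. In KO animals it ran from 1 to 2 in cerebellum against hippocampus, and was 0 for hippocampus against cortex and 1 for cerebellum against cortex throughout. Uncalled differences whose direction turned ran as follows. Between KO and WT cortex the ranges were Atf4 -0.143 to 0.0718, Atf5 -0.0441 to 0.0659, Ddit3 -0.0981 to 0.041, Trib3 -0.121 to 0.0192, Chac1 -0.187 to 0.0933, Psat1 -0.0749 to 0.224 and Phgdh -0.0293 to 0.232. Between KO and WT hippocampus the range was Atf5 -0.0946 to 0.0785, and between KO and WT cerebellum Ddit3 -0.0482 to 0.163 and Sesn2 -0.141 to 0.13. In WT animals the ranges were Ddit3 -0.146 to 0.0245 and Sesn2 -0.124 to 0.0186 in hippocampus against cortex, Atf4 -0.115 to 0.0714, Chac1 -0.142 to 0.139 and Sesn2 -0.199 to 0.0467 in cerebellum against cortex, and Sesn2 -0.152 to 0.0936 in cerebellum against hippocampus. In KO animals they were Tars -0.0551 to 0.0731 in hippocampus against cortex and Psat1 -0.388 to 0.125 in cerebellum against cortex.

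Fits with the animal or the number as a replicate block changed no member call: 0 of 10 members were called between KO and WT in each region, and the number as a fixed term in the 8 cerebellum arrays called 35 genes of all, against 0 without it. Scanner files were not used here, so signal over background is not known for any member.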

Other observations

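Over the 24 arrays, Psat1 correlated most with Pde8a and Erbin (Pearson r 0.97 and 0.94), and Tars with Ppil4 and Zfp84 (0.92 and 0.91). For Asns the top genes were Napg and Uprt (0.79 each), for Atf4 Cdk2ap1 and Psmc5 (0.80 and 0.76), for Phgdh Ptma and Cd9 (0.84 and 0.82), and for Chac1 Hspbap1 and Olfr904 (0.83 and 0.79). For Atf5 they were C1qtnf12 and 4921524L21Rik (0.79 and 0.78), for Ddit3 Spata31d1d and Mmp7 (0.80 and 0.77), for Trib3 Flna and Sec24a (0.77 and 0.73), and for Sesn2 Tnfrsf8 and Rhpn1 (0.72 and 0.69). The arrays share 3 regions and 8 animals, so these values describe a layout over regions as much as over animals. Psat1 was far higher in cerebellum KO 3 (13.82) than in the nearest KO cerebellum (12.48). How far its correlations rest on that array was not tested.

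The promoter element of Tars, Asns, Chac1 and Trib3 was in the window of 628 of 15745 rows matched to a RefSeq promoter. Their KO differences had medians of -0.02 in cortex, 0.01 in hippocampus and -0.03 in cerebellum, and 46.2%, 54.6% and 42% of them were higher in KO, beside 47.4%, 52.6% and 49.3% of all matched rows. None of the 628 was called in any region.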
